A study of Mus musculus with 6 samples.

Results

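The mitochondrial protein import machinery was described here through 36 genes of the 19937 measured in mouse leukaemia-model cells given the solvent DMSO or the compound UNC0638. A gene was taken when its probe set carried that 1 gene symbol in the array annotation and the symbol began with Timm or Tomm followed by a digit, or was Dnajc15, Dnajc19, Pam16, Grpel1, Grpel2, Samm50, Mtx1, Mtx2, Pmpca, Pmpcb, Chchd4 or Gfer. The genes were thus picked by name, and 40 probe sets were found for the 36. Within this rule a measured value entered only for the 4 genes with 2 of them, where the probe set with the higher mean was used. That mean was taken over the 6 arrays. The list itself was chosen with earlier results of these data known. A further probe set named both Timm10b and Dnhd1, so Timm10b is not analysed here.

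Nearly all mitochondrial proteins are encoded in the nucleus, made in the cytosol and imported. The TOM complex of the outer membrane is the common entry gate, from which a disulphide relay and small Tim chaperones serve the intermembrane space, TIM22 inserts carriers into the inner membrane, and TIM23 with its motor passes presequence proteins to the matrix, where a peptidase removes the presequence. Growing cells depend on this supply to build new mitochondria.

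The cells were haematopoietic stem and progenitor cells of the mouse that express HoxA9 and Meis1 (A9M cells), a cell line model of acute myeloid leukaemia, and both groups carry these 2 transforming genes. They grew in serum-containing medium with IL3, IL6 and SCF. The controls received DMSO and the other group UNC0638, an inhibitor of the histone methyltransferases G9a and GLP, each for 5 days, with 3 Affymetrix arrays per group. Whether the 3 samples of a group came from separate cultures is not labelled, so the spread behind each p-value is possibly only a technical one. The test used below also moderates the spread of each gene by that of all genes. The series concerns transcripts whose level rests on enzymatically active G9a. Values are the intensities deposited by the authors on a linear scale, with array medians of 50.4 to 54.9 and lower quartiles of 20.9 to 22.8. All 10 measured markers of haematopoietic and myeloid progenitors, Kit, Cd34, Mpo and Spi1 among them, were at 289 to 6450.0 on every array. The 16 measured markers of T, B, erythroid, fibroblast and epithelial cells were at 12.9 to 124, and none of the 26 passed the test across all genes. Summed over the list, the T cell markers were at 140.4 to 144 in DMSO and 149 to 177 in UNC0638, and the epithelial ones at 144 to 169 and 170.4 to 209.6. The lower quartile of the arrays was also higher in UNC0638, at 21.6 to 22.8 against 20.9 to 21.4 in DMSO. The part of such a background difference in these sums was not tested. The sums of the B cell, erythroid and fibroblast lists overlapped between the groups. So did that of the progenitor and myeloid list, but 3 of its 10 genes were higher on every UNC0638 array than on any DMSO array. These were Itgam, an integrin of myeloid cells, at 1125, 926 and 1004 with DMSO and 1405, 1400.2 and 1410.4 with UNC0638 (log2 difference 0.46, limma adjusted p = 0.0709 by the test described next), and Cd34 and Ptprc, with log2 differences of 0.27 and 0.25. The part of these shifts in the results was not tested.

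After UNC0638 the transcripts of 2 import genes fell, those of Chchd4 and Timm9, and none rose. Each difference is on the scale of log2(intensity + 16), which understates the change of dim genes. It was tested with limma, which fits all 19937 genes together, and passed at a Benjamini-Hochberg adjusted p under 0.05. At that threshold 0.672% of all genes changed, 0.301% lower and 0.371% higher, against 5.56% of the import genes lower. Beyond the 2 calls the import genes lay low as a group. Of the 36 differences, 34 were below 0, with a median of -0.27, whereas 46.1% of all genes were below 0, with a median of 0.012. Most import genes were brighter than the array medians, and shares among genes of like brightness were not taken. Without the dimmest 40% of genes, the median of all genes was -0.0059. At an unadjusted limma p under 0.05, 17 import genes (47.2%) were lower and 0 higher, against 6.21% of all genes lower and 6.47% higher. In 14 import genes (38.9%) all 3 UNC0638 arrays lay under all 3 DMSO arrays, against 7.4% of all genes. In 1, Grpel2, they lay above, against 9.59%. In such bulk samples, fewer cells of a type and less RNA per cell cannot be told apart. Neither call held without any one of the 6 arrays, where 0 or 1 import genes passed.

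**Figure D1:**
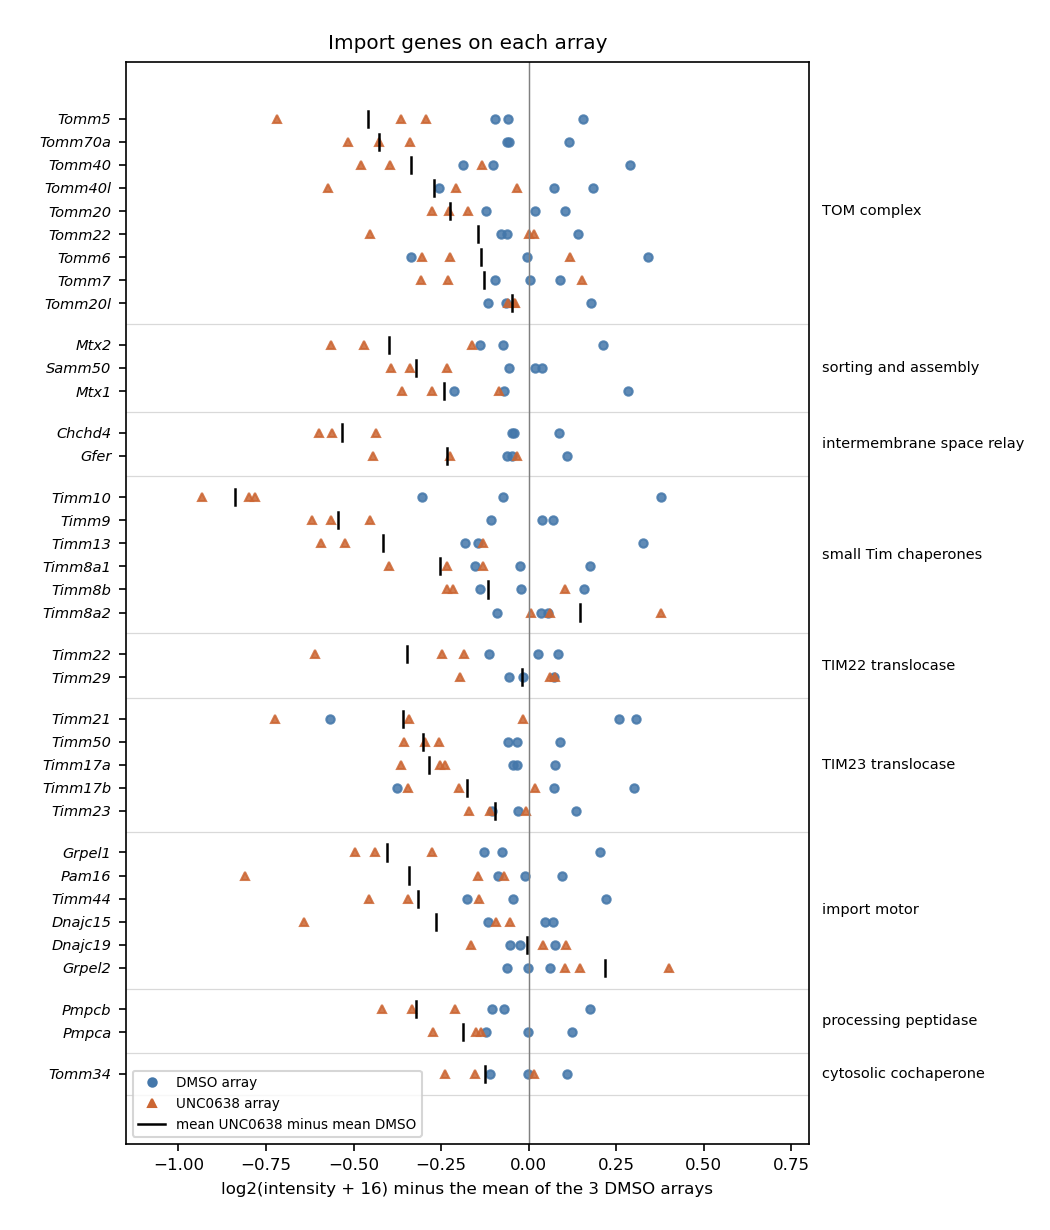
Each row is 1 of the 36 import genes, grouped by role. Circles are the 3 DMSO arrays and triangles the 3 UNC0638 arrays, as log2(intensity + 16) minus the gene's DMSO mean, and the black bar is the difference between group means. Of the 36 bars 34 lie left of 0, Timm10 farthest at -0.84, and those of Grpel2 and Timm8a2 lie right of it.

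The shift was present on each UNC0638 array. Averaged over the 36 genes, the deviation from the DMSO mean was 0.039 on DMSO array 1, -0.0019 on array 2 and -0.037 on array 3, and -0.21, -0.32 and -0.23 on UNC0638 arrays 1, 2 and 3. The groups do not overlap in this average. UNC0638 array 2 was the lowest of the 6 arrays in 17 of the 36 genes, array 1 in 8 and array 3 in 6, and the DMSO arrays together in the remaining 5. The median of all genes deviated by -0.0095, 0.025 and 0.013 on the UNC0638 arrays, so array 2, with the lowest import genes, was not low over all genes.

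Chchd4 encodes the oxidoreductase of the intermembrane space that puts disulphide bonds into incoming small proteins. Its intensity was 439, 398 and 400.2 with DMSO and 300.3, 274 and 267 with UNC0638 (probe set 10546346). Both groups were narrow and well apart. The mean was 412 ± 22.7 in DMSO and 280.2 ± 17.7 in UNC0638 (SD, n = 3). The log2 difference was -0.53 (SE 0.084, limma adjusted p = 0.0365), or 1.45-fold lower on the scale of the test. Without 1 array in turn the adjusted p was 0.0857 to 0.143 and the difference -0.58 to -0.49. Gfer encodes the sulfhydryl oxidase that recharges Chchd4 with oxidising power. It was at 215 to 244 in DMSO and 161 to 220.1 in UNC0638, with 1 UNC0638 array inside the DMSO range. Its log2 difference was -0.23 (95% interval -0.49 to 0.028, limma adjusted p = 0.464), and -0.13 without UNC0638 array 1.

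The small Tim proteins take hydrophobic precursors across the intermembrane space, and they are themselves folded by the Chchd4 relay. Of the 6 measured, 1 (16.7%) fell, against 0.301% of all genes. At an unadjusted limma p under 0.05, 4 (66.7%) were lower, against 6.21% of all genes. The median log2 difference of the 6 was -0.33. Timm9 and Timm10 form a ring-shaped chaperone together. Timm9 was at 252, 258 and 226 with DMSO and 175, 154 and 161 with UNC0638 (probe set 10400883). The UNC0638 arrays lay below the DMSO arrays by more than the width of either group. Timm9 had a mean of 246 ± 16.9 in DMSO and 163 ± 10.6 in UNC0638 (SD, n = 3). Its log2 difference was -0.54 (SE 0.087, limma adjusted p = 0.0378), or 1.46-fold lower on the scale of the test. Leaving out 1 array in turn gave it an adjusted p of 0.0643 to 0.149.

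Its partner Timm10 had the largest difference of the 36 but did not pass. It was at 288, 207 and 174 with DMSO and 119, 107 and 120.3 with UNC0638 (probe set 10473363). The UNC0638 arrays lay close together and under the DMSO arrays, which were themselves spread, with DMSO array 1 highest. The mean was 223 ± 59.1 in DMSO and 115 ± 7.39 in UNC0638 (SD, n = 3). The log2 difference was -0.84 (SE 0.16, 95% interval -1.20 to -0.48, limma adjusted p = 0.0658). Timm10 was thus 1.79-fold lower on the scale of the test, which understates the fold between the mean intensities. It passed in 4 of 15 alternatives, without DMSO array 3 (adjusted p = 0.0460), with a pseudocount of 1, with a trended robust prior and without the dimmest 40% of genes, whereas Chchd4 and Timm9 each passed in 5 of 15. Those 5 include the mean of probe sets, which leaves the intensities of genes with 1 probe set unchanged.

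The second small Tim chaperone pairs Timm8a1 with Timm13. Timm13 was at 301, 434 and 309 with DMSO and 312, 234 and 222 with UNC0638, with UNC0638 array 1 inside the DMSO range, and its log2 difference was -0.42 (limma adjusted p = 0.341), or -0.25 without DMSO array 2. Timm8a1 lay at 652 to 824 in DMSO and 548 to 663 in UNC0638, with overlapping groups. Its log2 difference was -0.25 (limma adjusted p = 0.391), or -0.16 without DMSO array 1. Its dimmer probe set gave -0.55 (limma adjusted p = 0.514), with 528, 243 and 253 in DMSO and 168, 270 and 215 in UNC0638. Timm8a1 is on chromosome X, but that probe set, 10361760, is numbered between those of Tomm40l on chromosome 1 and Timm13 on chromosome 10. Whether it reads the Timm8a1 gene itself was not checked. Timm8b, a close relative of Timm8a1, was at 1379.9 to 1696 in DMSO and 1291 to 1633 in UNC0638, overlapping, with a log2 difference of -0.11 (95% interval -0.39 to 0.16). Timm8a2 is a further relative. At 15.7 to 19.1 in DMSO and 17.9 to 27.9 in UNC0638 it lay around the lower quartile of the arrays, where the pseudocount shrinks a change, and its log2 difference was 0.15. The probes of such near relatives may read each other's transcripts, which leaves their separate values uncertain.

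**Figure D2:**
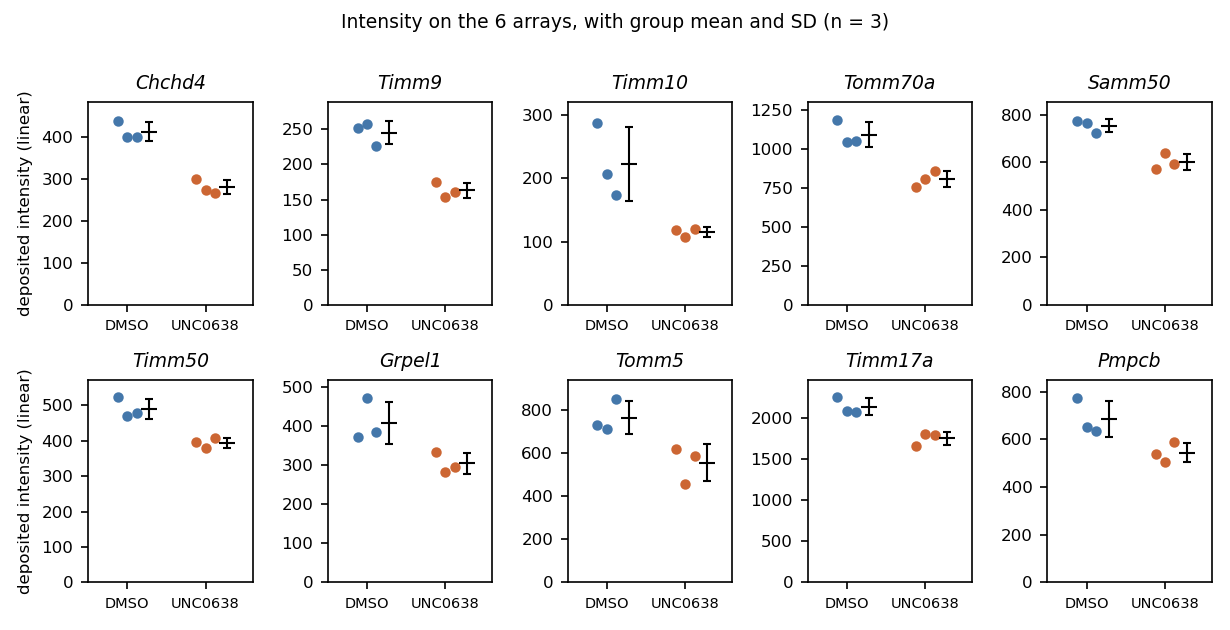
The vertical axis of each panel is the deposited intensity of 1 import gene, from 0, for the 10 genes with the smallest limma p. Points are arrays in the order 1 to 3, and the cross with bars gives the group mean ± SD (n = 3). In all 10 panels the UNC0638 arrays lie below the DMSO arrays, with the widest DMSO spread relative to its mean in Timm10.

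The promoter windows of Chchd4, Timm9 and Timm10 are shown because these are the 3 import genes with the smallest p. Looked for in them were the palindromic E-box CACGTG, the site of Myc-type factors, and the core of the NRF1 site (GCGCA, any base, then GCGC). NRF1 is a regulator of nuclear genes for mitochondrial proteins. Both motifs were searched on both strands and counted even where they overlapped, and neither contains the other. Windows run from 250 bases before to 50 after the start of the gene, from RefSeq on GRCm38.p6, and 32 of the 36 genes had one. Capitals mark a motif, the NRF1 core in Chchd4 and the E-box in Timm9 and Timm10. The windows are chr6:91473374-91473673, minus strand for Chchd4, chr12:71136626-71136925, minus strand for Timm9 and chr2:84826771-84827070, plus strand for Timm10.
Chchd4: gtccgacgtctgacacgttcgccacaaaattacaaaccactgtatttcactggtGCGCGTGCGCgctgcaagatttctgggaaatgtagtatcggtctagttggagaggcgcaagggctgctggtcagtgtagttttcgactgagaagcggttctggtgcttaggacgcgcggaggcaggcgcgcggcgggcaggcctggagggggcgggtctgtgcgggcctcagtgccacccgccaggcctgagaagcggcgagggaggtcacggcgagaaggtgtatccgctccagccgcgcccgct
Timm9: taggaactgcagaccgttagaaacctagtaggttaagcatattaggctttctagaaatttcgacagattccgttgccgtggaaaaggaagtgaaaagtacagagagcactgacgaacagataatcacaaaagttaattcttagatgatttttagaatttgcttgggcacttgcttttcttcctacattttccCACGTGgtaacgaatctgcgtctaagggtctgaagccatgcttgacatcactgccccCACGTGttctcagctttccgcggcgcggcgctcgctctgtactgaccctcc
Timm10: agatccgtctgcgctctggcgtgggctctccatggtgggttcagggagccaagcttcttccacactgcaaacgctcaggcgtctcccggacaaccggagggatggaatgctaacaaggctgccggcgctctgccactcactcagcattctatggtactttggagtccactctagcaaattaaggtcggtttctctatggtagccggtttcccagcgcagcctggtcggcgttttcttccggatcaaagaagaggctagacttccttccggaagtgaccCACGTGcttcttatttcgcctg
The Timm9 window holds 2 E-boxes and the Timm10 window 1, which lies after the start, whereas the Chchd4 window holds no E-box and 1 NRF1 core far upstream of the start. Among the 34 windows of import genes, 5 (14.7%) held an E-box, against 7.15% of all 32851 windows and 8.26% of those of genes with a single-gene probe set. The other 3 E-box windows were those of Timm8a1, Tomm20 and Tomm20l. The NRF1 core was in 4 (11.8%), those of Chchd4, Pam16, Timm8b and Tomm20, against 4.6% and 6.94%. Genes with an E-box had a median log2 difference of -0.25 and the 27 without one -0.28. For the NRF1 core these medians were -0.28 in 4 genes and -0.27 in 28. The lowest differences were -0.84 with an E-box and -0.53 without, since Timm10 and Timm9, the genes with the largest differences, both held one. For the NRF1 core the lowest were -0.53 with and -0.84 without. Tomm20 held both motifs, and 24 of the 32 genes held neither.

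All 9 measured genes of the TOM complex had a difference below 0, with a median of -0.23. None passed, and 4 (44.4%) were lower at an unadjusted limma p under 0.05, against 6.21% of all genes. Tomm70a encodes the receptor that takes carrier precursors from cytosolic chaperones. It was at 1183, 1044 and 1048 with DMSO and 758, 806 and 858 with UNC0638, so that the groups were well apart. Its mean was 1092 ± 79.3 in DMSO and 807 ± 50.3 in UNC0638 (SD, n = 3), with a log2 difference of -0.43 (SE 0.088, limma adjusted p = 0.0819), and it passed in 0 of 15 alternatives. Tomm20, the receptor for presequences, was at 1556 to 1821 in DMSO and 1397 to 1501 in UNC0638, without overlap, and had a log2 difference of -0.23 (limma adjusted p = 0.318). Its other probe set gave -0.35 when all single-gene probe sets were fitted together (limma adjusted p = 0.120). Tomm20 is on chromosome 8, but the probe set used, 10477370, is numbered between those of Timm10 and Tomm34 on chromosome 2. The other, 10582814, is numbered between those of Timm44 on chromosome 8 and Timm29 on chromosome 9. Which of them reads the Tomm20 gene itself was not checked.

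The channel itself is made of Tomm40, which was at 278, 370.0 and 261 with DMSO and 224, 272 and 210.5 with UNC0638. UNC0638 array 2 lay inside the DMSO range, and the log2 difference was -0.34 (limma adjusted p = 0.375), or -0.19 without DMSO array 2. Among the small subunits that steady the channel, Tomm5 was at 731, 713 and 852 with DMSO and 619.6, 458 and 589 with UNC0638. Its groups did not overlap, and its log2 difference was -0.46 (SE 0.13, limma adjusted p = 0.163). The small subunits Tomm6 and Tomm7 had log2 differences of -0.14 and -0.13, with 95% intervals of -0.54 to 0.27 and -0.42 to 0.16, and overlapping groups. The central receptor Tomm22 was at -0.15 (95% interval -0.46 to 0.16). Tomm22 is on chromosome 15, but its probe set, 10514924, is numbered between those of Tomm5 on chromosome 4 and Pmpcb on chromosome 5. Whether it reads the Tomm22 gene itself was not checked. The paralogues Tomm40l and Tomm20l of channel and receptor were at log2 differences of -0.27 and -0.046, and Tomm40l was at -0.12 without UNC0638 array 2. Tomm34, a cytosolic cochaperone that shares the name but is no part of the gate, was at -0.13 (95% interval -0.35 to 0.10).

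Samm50 inserts barrel-shaped proteins into the outer membrane, with the metaxins Mtx1 and Mtx2 as its partners. Samm50 was at 775, 765 and 725 with DMSO and 571, 639 and 593 with UNC0638, 2 narrow groups apart from each other. Its log2 difference was -0.32 (SE 0.080, limma adjusted p = 0.129). Mtx2 was at 178 to 231 in DMSO and 128 to 175 in UNC0638, without overlap, a log2 difference of -0.40 (limma adjusted p = 0.249). Mtx1 overlapped between the groups and was at -0.24 (limma adjusted p = 0.538), or -0.10 without DMSO array 1.

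The TIM23 translocase of the inner membrane had 5 measured genes, all with a difference below 0, a median of -0.28 and none past the threshold. Timm50, the receptor that hands presequences to the channel, was at 523, 470.4 and 479 with DMSO and 396, 379.9 and 408 with UNC0638. The groups did not overlap, and the log2 difference was -0.30 (SE 0.080, limma adjusted p = 0.148). Timm17a, a core subunit beside the channel, was at 2251, 2088 and 2071 with DMSO and 1656, 1807 and 1790.3 with UNC0638. These groups did not overlap either, with a log2 difference of -0.28 (SE 0.080, limma adjusted p = 0.172). The second Timm17a probe set gave -0.40 (limma adjusted p = 0.159). Timm17a is on chromosome 1, but this second probe set, 10565081, is numbered between those of Timm50 on chromosome 7 and Timm44 on chromosome 8. Whether it reads the Timm17a gene itself was not checked. Timm23, after which the translocase is named, overlapped at 1608 to 1901 in DMSO and 1535 to 1720.4 in UNC0638, with a log2 difference of -0.10 (95% interval -0.31 to 0.11). Timm21, which links TIM23 to the TOM complex, and Timm17b, the paralogue of Timm17a, were more spread. Timm17b had a log2 difference of -0.17 (95% interval -0.56 to 0.21). Timm21 had the widest interval of the 36, -0.93 to 0.21 around -0.36, and ran from -0.64 without DMSO array 2 to -0.18 without UNC0638 array 2.

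In the carrier translocase TIM22, the channel protein Timm22 was at 144, 150.4 and 129 with DMSO and 116, 86.7 and 122 with UNC0638. UNC0638 array 2 was the lowest and the groups did not overlap, with a log2 difference of -0.35 (limma adjusted p = 0.280), or -0.21 without that array. Timm29, which stabilises that complex, was at 148 to 163 in DMSO and 133 to 164 in UNC0638 and had a log2 difference of -0.020 (95% interval -0.24 to 0.20). Its sign turned without DMSO array 1 or UNC0638 array 2.

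The import motor pulls precursors into the matrix with the mitochondrial heat shock protein Hspa9, which Timm44 tethers to the channel. Timm44 was at 311 to 414 in DMSO and 253 to 318 in UNC0638, with the highest UNC0638 array inside the DMSO range, and had a log2 difference of -0.31 (limma adjusted p = 0.336), or -0.20 without DMSO array 1. Grpel1 and Grpel2 encode the exchange factors that reset Hspa9. Grpel1 was at 371, 471 and 385 with DMSO and 334, 284 and 296 with UNC0638. Its groups did not overlap, and the log2 difference was -0.40 (SE 0.11, limma adjusted p = 0.159).

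Grpel2, by contrast, was at 114, 119 and 108 with DMSO and 128, 124 and 155 with UNC0638. All 3 UNC0638 arrays lay above the DMSO arrays, with a log2 difference of 0.22 (95% interval -0.0055 to 0.44, limma adjusted p = 0.409), or 0.13 without UNC0638 array 3. Of the motor's J-proteins, which stimulate Hspa9, Dnajc15 was at -0.26 and Dnajc19 at -0.0047 (95% interval -0.22 to 0.21). Dnajc15 was at 488 on UNC0638 array 2 and at 743 and 721 on the other two, and without array 2 its log2 difference was -0.073. Their regulator Pam16 was at -0.34, with UNC0638 array 3 at 407 and the other two at 656 and 691. Without UNC0638 array 3, Pam16 was at -0.11, and its second probe set gave -0.16. Pam16 is on chromosome 16, but the probe set used, 10362892, is numbered between those of Tomm40l on chromosome 1 and Timm13 on chromosome 10. The second, 10437392, is numbered next after that of Tomm70a on chromosome 16. Which of them reads the Pam16 gene itself was not checked.

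The peptidase that removes presequences in the matrix has a catalytic subunit, Pmpcb, and a substrate-holding one, Pmpca. Pmpcb was at 774, 649.9 and 634 with DMSO and 539, 507 and 588 with UNC0638. The groups did not overlap, and the log2 difference was -0.32 (SE 0.10, limma adjusted p = 0.225). Pmpca was at 862 to 1025 in DMSO and 774 to 855 in UNC0638, also without overlap, with a log2 difference of -0.19 (limma adjusted p = 0.462).

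Paralogues with related functions were set side by side in 6 pairs, chosen after their values were seen, by taking the difference of their deviations on each array. The deviation of Grpel1 minus that of Grpel2 averaged less in UNC0638 than in DMSO, with a difference of -0.62 on the log2 scale and no overlap between the groups. The same held for Timm8a1 beside Timm8a2 (-0.40) and for Dnajc15 beside Dnajc19 (-0.26). Timm8a2 lay around the lower quartile of the arrays, so its deviations are uncertain. Dnajc15 minus Dnajc19 was at -0.16, -0.48 and -0.14 on UNC0638 arrays 1, 2 and 3, so that array 2 weighed most. Timm17a beside Timm17b (-0.11), Tomm20 beside Tomm20l (-0.18) and Tomm40 beside Tomm40l (-0.064) overlapped. No test is given for the pairs, since an exact permutation test of 3 arrays against 3 cannot go below p = 0.1.

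The import genes lay near the mitochondrial ribosome and lower than the subunits of oxidative phosphorylation in their medians, which were not tested against each other. Of 77 genes of the mitochondrial ribosome 68 were below 0, with a median of -0.22, and 1 fell, Mrpl12, from 581 ± 15.2 to 388 ± 36.2 (SD, n = 3, log2 difference -0.56, limma adjusted p = 0.0361). At an unadjusted limma p under 0.05, 41.6% of them were lower, against 47.2% of the import genes and 6.21% of all genes. Of 82 subunits of oxidative phosphorylation 68 were below 0, with a median of -0.13, 14.6% were lower at that p and none passed the adjusted threshold. Uqcrc1, a core subunit of complex III, had the smallest p among them (log2 difference -0.39, limma adjusted p = 0.119).

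**Figure D3:**
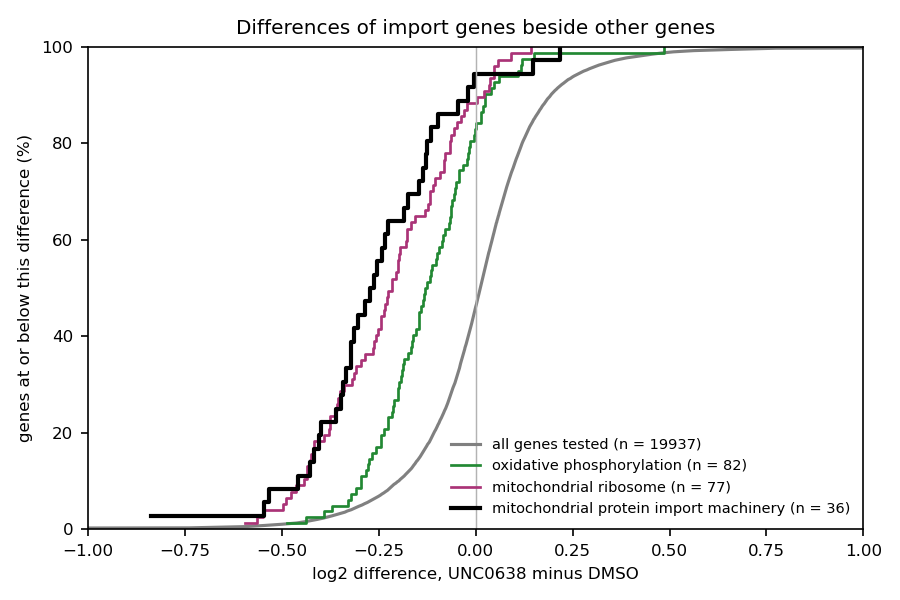
The horizontal axis is the log2 difference between UNC0638 and DMSO, drawn from -1 to 1, and the vertical axis the percentage of a list at or below it. The curves of the 36 import genes (median -0.27) and the 77 mitochondrial ribosome genes (-0.22) lie, over most of their length, left of those of the 82 oxidative phosphorylation subunits (-0.13) and of all 19937 genes (0.012).

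Other genes of import, sorting, processing and folding had a median nearer 0. Of 28 measured, 22 were below 0, none passed, and the median was -0.15. At an unadjusted limma p under 0.05, 10 (35.7%) were lower, against 6.21% of all genes. In 12 (42.9%) all UNC0638 arrays lay under all DMSO arrays, against 38.9% of the import genes and 7.4% of all genes. Dnajc11, a J-protein of the mitochondrial membranes, came nearest, with 301 ± 20.5 in DMSO and 211 ± 20.3 in UNC0638 (SD, n = 3) and a log2 difference of -0.49 (limma adjusted p = 0.0751). Of the 6 measured genes of MICOS, the complex that shapes the cristae and binds Samm50, 5 were below 0 and none passed. Its core subunit Immt was at -0.27 (limma adjusted p = 0.195).

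Transcripts of proteins that depend on these routes were examined too. Of 15 measured substrates of the Chchd4 relay, some of which are also subunits of oxidative phosphorylation, 10 were below 0, with a median of -0.16 and none past the threshold. Chchd1, a mitochondrial ribosome protein, was at -0.50 (limma adjusted p = 0.177). Carriers of the inner membrane are the main clients of TIM22. Of 48 genes of the carrier family 21 were below 0 and 27 above, with a median of 0.021 and none past the threshold. Some were dim, where the pseudocount shrinks a change. Slc25a31, Slc25a54 and Slc25a21, for example, had group means of 10.5 to 12.6, under the lower quartile of the arrays. The 48 include Slc25a46 of the outer membrane (0.24) and Slc25a17 of peroxisomes (0.087), which are not inner membrane carriers. Slc25a39, a carrier of the inner membrane, had the smallest p among them (log2 difference -0.34, limma adjusted p = 0.299). At an unadjusted limma p under 0.05, 2 carrier genes (4.17%) were lower and 5 (10.4%) higher, near the 6.21% and 6.47% of all genes.

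Among 13 nuclear regulators of mitochondrial gene expression 11 were below 0, with a median of -0.10, and none passed. Myc, whose E-box was searched for above, was at 3012 ± 218 in DMSO and 2204 ± 159 in UNC0638 (SD, n = 3), a log2 difference of -0.45 (limma adjusted p = 0.0808). Tfam, the packaging and transcription factor of mitochondrial DNA, was at 168 ± 6.63 in DMSO and 127 ± 5.67 in UNC0638 (SD, n = 3), a log2 difference of -0.37 (limma adjusted p = 0.0853). Both had groups that did not overlap. Nrf1 was at -0.14 (limma adjusted p = 0.571), with overlapping groups. The part of these regulators in the import genes' levels was not tested.

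Chchd4 and Timm9 each kept their call in 5 of 15 alternatives, under quantile normalization, median centring, the mean of probe sets, array weights and without the dimmest 40% of genes. Each has 1 probe set, so the mean of probe sets left their intensities unchanged and was hardly a check on them. Their differences kept their sign and ranged from -0.58 to -0.47 and from -0.60 to -0.45.

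**Figure D4:**
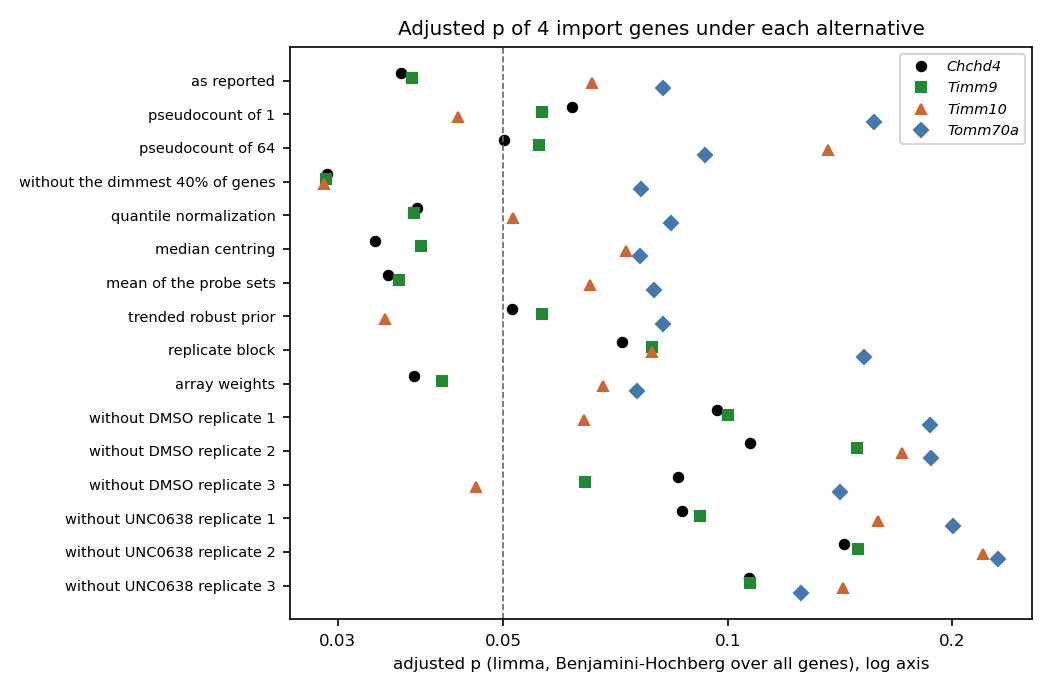
The horizontal log axis is the limma adjusted p of Chchd4, Timm9, Timm10 and Tomm70a as reported and under 15 alternatives, 1 per row, and the dashed line is 0.05. Chchd4 and Timm9 lie left of the line as reported and in 5 alternatives, Timm10 in 4 and Tomm70a in 0. With an array left out, Chchd4 and Timm9 lie right of it in all 6 rows.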

How the data were processed

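The authors deposited 1 processed intensity per probe set and array. Per the labels' protocols, 6 ug of total RNA gave biotinylated cRNA by the Affymetrix procedure. How the intensities were summarised, background-corrected and normalized is not given in the sources used here, and such steps can shrink differences, most of all in dim genes. Of 34760 probe sets, 21640 carried 1 gene symbol, 1321 several and 11799 none in the platform annotation. The brightest probe set of each gene was kept. The place in the genome that a probe set reads was not checked. All 36 symbols of import genes matched a RefSeq table of GRCm38.p6. Differences were taken on log2(intensity + 16) and fitted on group over 19937 genes with limma 3.58.1 in R 4.3.3, with Benjamini-Hochberg adjustment at 0.05. The alternatives were pseudocounts of 1 and 64, a filter on the dimmest 40% of genes, quantile normalization, median centring, the mean of probe sets, array weights, a trended robust prior, the replicate block, a threshold of 0.01 and each array left out. The number of arrays limits the precision. No batch is labelled. Same-numbered samples were not treated as pairs, since the labels state no pairing. Deviations from the group means correlated at -0.066, 0.11 and 0.017 between them, and at -0.13 to 0.11 between differently numbered samples. With so few arrays these correlations cannot settle whether the samples are pairs. Values on each array are given for at least Timm10 and the 10 import genes with the smallest p, which include both calls. In other lists the genes named are those past the threshold or that with the smallest p, and the others named were chosen after their values were seen. The genes and lists were chosen with earlier results of these data known. The fit of every probe set and the paralogue pairs were chosen after seeing the data. Plots were made in matplotlib 3.10.9.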

Additional observations from a re-analysis of the deposited data

How the results depend on the processing

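The median of the import genes, -0.27, kept its sign in every alternative run, from -0.31 under median centring to -0.23 without UNC0638 array 2. No move exceeded the spread between replicates (SD 0.053), but this was largely fixed beforehand. The trended robust prior, the replicate block and the threshold of 0.01 do not change a difference. Leaving out 1 of 3 arrays moves a group mean by less than its own SD. Between 31 and 34 of the genes lay below 0 in these runs. The number of import genes past the threshold, 2, was 1 with a pseudocount of 1 or a trended robust prior, and 0 with a pseudocount of 64, at a threshold of 0.01 or with the replicate block. It was 0 to 1 without 1 array, 3 without the dimmest 40% of genes and 2 in the other alternatives. The number over all genes, 134, was 49 with a pseudocount of 64, 18 at a threshold of 0.01, 73 with the replicate block and 10 to 69 without 1 array. With the replicate number as a block, adjusted p was 0.0722 for Chchd4 and 0.079 for Timm9. The labels do not say whether same-numbered samples belong together. Of the 36 differences 31 kept their sign throughout. Dnajc19 was at 0.0097 under quantile normalization. Without 1 array, signs turned for Dnajc19 (-0.060 to 0.074), Timm29 (-0.068 to 0.068), Tomm20l (-0.10 to 0.043), Tomm6 (-0.30 to 0.034) and Tomm22 (-0.23 to 0.0074). Signal over background limits Timm8a2, which the filter on dim genes removed.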
